A study of Caenorhabditis elegans with 2 samples.

Results

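The peroxins of Caenorhabditis elegans are the proteins that build the peroxisome, and 10 of their genes were examined for occupancy by the nuclear receptor NHR-80. They were taken by name (prx-1, prx-2, prx-3, prx-5, prx-6, prx-10, prx-11, prx-12, prx-13 and prx-19) from the 19973 protein-coding genes on the nuclear chromosomes, and all 10 were found in the annotation. For each gene, every summit, the highest point of a peak, was collected from 2000 bp upstream of the 5' end to 1000 bp past the 3' end, which is called the wide window here. The rule uses names and coordinates and no measured value, but the list was drawn up with earlier results of these data known.

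NHR-80 was mapped by chromatin immunoprecipitation and sequencing (ChIP-seq) in 1 group of 2 biological replicates. Both came from whole hermaphrodite young adults of strain OP460, of genotype unc-119(tm4063) III; wgIs460, taken 64 hours after larvae had been synchronised as starved L1. The strain is a stable line that carries NHR-80 with a GFP-FLAG tag at its C terminus. The sample description names an antibody against GFP, while another label names nhr-80. No untagged strain, other stage or NHR-80 mutant was analysed here, so no result compares conditions, and tissues cannot be told apart in whole animals.

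Peroxisomes carry out steps of lipid metabolism such as the beta-oxidation of very long chains and the first reactions of ether lipid synthesis. Their enzymes are made in the cytosol and folded before import: a receptor binds the cargo, docks at the membrane, releases the cargo inside, and is then marked with ubiquitin and pulled out for another round. NHR-80 is a receptor of the HNF4-like class, known in worms as a regulator of fatty acid desaturase genes. The mechanisms given below for single peroxins are known mainly from yeast and mammals.

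The authors' lists on build ce11 held 30000 peaks for the pooled replicates, 30000 for replicate 1 and 29712 for replicate 2. A list thresholded by irreproducible discovery rate (IDR), which sets a limit from how well peak ranks repeat between replicates, held 7038, and these were the strongest 7038 of the pooled list. Signal values are the authors' own, on each list's scale, so values and ranks (1 is the strongest) describe peaks within 1 list only. Thresholded signals ran from 93.0 to 2158, with a median of 195. Peak lists hold no read counts, so the depth is unknown. The smallest distance between summits was 199 bp in each list, and 20.4% of neighbouring pooled summits lay less than 220 bp apart.

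Thresholded NHR-80 summits lay in the wide windows of 7 of the 10 peroxin genes (70%). Among all protein-coding genes the share was 32.3%. The genes with one were prx-1, prx-5, prx-6, prx-11, prx-12, prx-13 and prx-19, with 10 summits in all. The genes without one were prx-2, prx-3 and prx-10. In the promoter window, which reached from 1000 bp before the 5' end to 200 bp after it, 6 of the 10 peroxin genes had a summit (60%), against 18.6% of all protein-coding genes. The 6 include every gene with a thresholded summit except prx-11. The window lengths were alike, with a median of 5057 bp for peroxins and 5027 bp for all protein-coding genes. These shares are descriptions of a chosen list and carry no test. The list leaves out the peroxin gene prx-14, which had no thresholded summit and is counted below with the other peroxisome genes.

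The DNA under the summits is shown for 7 genes, because these stretches place each summit against its gene and allow the letters at different peroxins to be compared. Each runs 5' to 3' on the strand of its gene, on build WBcel235 (ce11), and reaches 50 bp either side of the summit, so that base 51 is the summit. The prx-13 stretch was ended on its upstream side at a neighbouring exon and has its summit at base 27. Capitals mark matches to any of 5 short motifs on either strand. The motif TGATAA reads as TTATCA from the other strand, and the motif AGATAA reads as TTATCT from there. Likewise the motif AGGTCA reads as TGACCT from the other strand, the motif AAAGTCC reads as GGACTTT, and the motif CACGTG reads the same from both. A copy of TGATAA and a copy of the motif AGATAA cannot start at the same base. The sequences are those of the RefSeq genome, not of the strain. The stretch shown is not always at the strongest summit of the gene. At prx-1 it is the weaker summit, and the stronger one held none of the 5 motifs within 50 bp. The other summits of prx-1 and prx-6 are shown further below, and the prx-11 summit and the farther prx-13 summit are not shown.
prx-1, chrX:14313643-14313743, plus strand, summit at -234 bp: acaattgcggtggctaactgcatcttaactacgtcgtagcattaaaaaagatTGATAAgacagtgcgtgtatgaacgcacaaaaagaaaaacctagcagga
prx-6, chrV:4721066-4721166, minus strand, summit at -1023 bp: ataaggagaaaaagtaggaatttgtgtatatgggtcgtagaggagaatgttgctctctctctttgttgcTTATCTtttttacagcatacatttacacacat
prx-12, chrX:11393056-11393156, plus strand, summit at -188 bp: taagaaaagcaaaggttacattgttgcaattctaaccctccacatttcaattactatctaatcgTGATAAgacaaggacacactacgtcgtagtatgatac
prx-5, chrII:8704583-8704683, plus strand, summit at -191 bp: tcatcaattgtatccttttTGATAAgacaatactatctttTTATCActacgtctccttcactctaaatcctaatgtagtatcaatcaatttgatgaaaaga
prx-13, chrII:7252155-7252231, minus strand, summit at -190 bp: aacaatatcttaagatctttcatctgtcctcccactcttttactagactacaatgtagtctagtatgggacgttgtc
prx-3, chrX:6113019-6113119, minus strand, summit at -152 bp, pooled list only: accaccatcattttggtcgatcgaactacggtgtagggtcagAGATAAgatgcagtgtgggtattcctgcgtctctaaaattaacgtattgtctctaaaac
prx-19, chrIII:8809438-8809538, minus strand, summit at -193 bp: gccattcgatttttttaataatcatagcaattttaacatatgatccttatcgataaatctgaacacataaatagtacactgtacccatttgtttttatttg

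TGATAA is the core that GATA factors of the worm intestine are known to bind, AGGTCA is a half-site of many nuclear receptors, AAAGTCC belongs to HNF4-type sites, and CACGTG is an E-box. Within 50 bp of the summit, TGATAA was present at 4 of the 10 thresholded peroxin summits (40%), against 37.9% of the 7020 nuclear thresholded summits and 13.0% of the 19750 pooled peaks that overlap no thresholded one. At this distance the peroxin share was near that of all thresholded summits. Within 25 bp it was 4 of 10 (40%), against 22.3%, and within 100 bp it was 8 of 10 (80%), against 51.7%, so the difference depends on the distance chosen. AGATAA was present at 2 of the 10 (20%), against 9.70% of all thresholded summits. The motif AGGTCA was at 0 of the 10, against 3.33% of all thresholded summits, the motif AAAGTCC at 0 against 0.869%, and the motif CACGTG at 0 against 4.25%. A count of 0 among 10 says only that these letters are not in these windows.

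The position of the match differed between genes. At prx-1 TGATAA began 2 bp past the summit, at prx-12 14 bp past it, and at prx-5 2 copies on opposite strands began at -31 and -10 bp from it. The fourth was at the upstream summit of prx-13, 19 bp past the summit. Both AGATAA matches at thresholded summits were at prx-6 and on the other strand. The summit windows had a median GC content of 37.6% at peroxins, ranging from 26.7 to 49.5%, against a median of 40.6% over all thresholded summits.

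**Figure D1:**
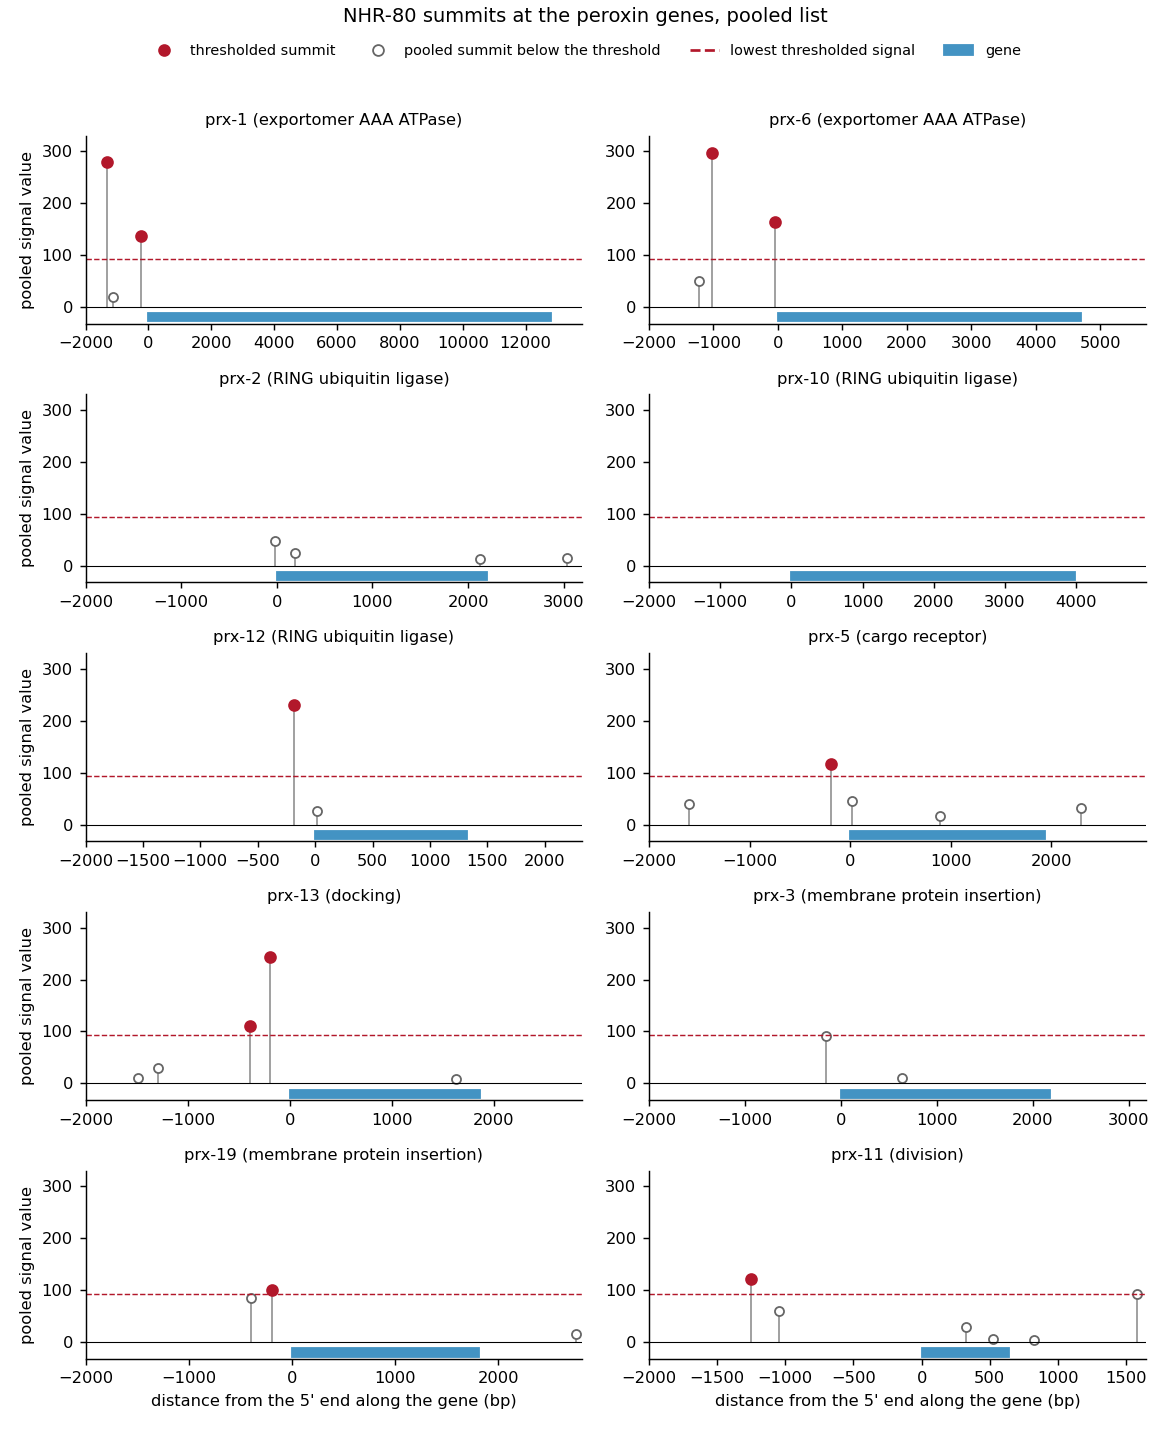
NHR-80 summits of the pooled list in the wide window of each of the 10 peroxin genes, with distance from the 5' end in bp on the x axis and the authors' pooled signal value on the y axis; filled points are thresholded summits, open points lie under the lowest thresholded signal of 93.0 (dashed line), and the blue bar is the gene. The filled points all lie upstream of the gene, and prx-10 has no point.

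Both ATPases that recycle the import receptor had a pair of thresholded summits upstream. The worm genes prx-1 and prx-6 encode AAA ATPases of the machinery that pulls the ubiquitin-marked receptor out of the membrane. These 2 genes held 4 of the 10 peroxin summits, and the 2 strongest of them.

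At prx-6 (WBGene00004195, V:4715388-4720093, minus strand) the stronger summit lay at -1023 bp from the 5' end, in intergenic sequence (peak V:4720949-4721280). Its signal was 296 with rank 1909 in the pooled list, 166 with rank 1785 in replicate 1 and 127 with rank 2214 in replicate 2. This was the highest peroxin value in the pooled list, and it lay 23 bp outside the promoter window, so the promoter count for prx-6 rests on its second summit. That summit was at -51 bp (peak V:4720019-4720248), with signals of 164 pooled, 81.4 in replicate 1 and 82.6 in replicate 2. For both summits prx-6 was the protein-coding gene with the nearest 5' end, and the next gene upstream, F39G3.5, was 2520 bp away on the opposite strand. A lower pooled summit at -1223 bp had a signal of 49.6.

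At prx-1 (WBGene00004191, X:14313927-14326726, plus strand), the longest of the 10 genes at 12800 bp, the stronger summit was at -1329 bp (peak X:14312385-14312818). Its signals were 279.9 pooled (rank 2091), 154 in replicate 1 (rank 2046) and 133 in replicate 2 (rank 2041). This summit is in the intergenic stretch of 2243 bp between prx-1 and mgrn-1, which are transcribed away from each other, and it lies at -915 bp from mgrn-1, inside the promoter window of that gene. The second summit, at -234 bp (peak X:14313453-14313932), had signals of 137 pooled, 64.5 in replicate 1 and 69.1 in replicate 2, and prx-1 had the nearest 5' end. The lists do not assign the -1329 bp summit to either gene.

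The 3 RING ubiquitin ligase genes differed widely. They encode RING-finger proteins of the membrane ligase that attaches ubiquitin to the receptor. Of the 3 worm genes, prx-12 had a thresholded summit in its promoter, prx-2 had pooled peaks below the threshold, and prx-10 had no pooled peak in its window.

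At prx-12 (WBGene00004197, X:11393294-11394619, plus strand) the summit was at -188 bp (peak X:11392976-11393212), in the 517 bp between prx-12 and prmn-1, a neighbour on the same strand. Its signals were 231 pooled (rank 2828), 113 in replicate 1 (rank 3213) and 118 in replicate 2 (rank 2480). A pooled summit at 16 bp past the 5' end had a signal of 26.8.

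At prx-2 (WBGene00004192, IV:11644129-11646322, plus strand) the strongest pooled summit was at -14 bp with a signal of 48.1 and rank 10388. It was at -18 bp in replicate 1 (signal 24.7, rank 11309), while in replicate 2 the strongest was at 47 bp (signal 21.2, rank 11377). Both replicates thus listed a peak near the start of prx-2, at a rank beyond 10000. The other 3 pooled summits of its window had signals from 13.1 to 23.6. Upstream of prx-2 the next gene, ZK809.1, was 406 bp away on the same strand.

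At prx-10 (WBGene00006946, III:5236404-5240383, plus strand) each replicate listed 1 peak in the window, both in the 3' UTR of mrps-26, whose end is 39 bp upstream of prx-10 on the same strand. The summit was at -256 bp with a signal of 31.9 (rank 9799) in replicate 1 and at -220 bp with a signal of 17.3 (rank 12739) in replicate 2. The pooled list had nothing there, and its nearest summit was at -2151 bp, outside the window, with a signal of 4.67 and rank 29640. A peak found in both replicates and missing from the pooled list was uncommon but not peculiar to prx-10. It held for 657 of the 23366 replicate 1 peaks that overlapped a replicate 2 peak (2.81%), and for 106 of the 9849 of these with a replicate 1 rank up to 10000 (1.08%).

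The import receptor and the docking protein both had promoter summits, each close to a second gene. PRX-5 is the receptor for enzymes that end in the C-terminal peroxisomal signal, and the mammalian and yeast counterparts of PRX-13 are part of the membrane complex where that receptor docks.

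At prx-5 (WBGene00004194, II:8704824-8706760, plus strand) the thresholded summit was at -191 bp (peak II:8704393-8704872). Its signals were 117 pooled (rank 5901), 68.5 in replicate 1 (rank 5643) and 58.5 in replicate 2 (rank 5647). The replicates placed this summit 69 bp apart, the widest separation among the 10. The same summit lies at -804 bp from ceh-7, a homeobox gene on the opposite strand, and so in the promoter window of ceh-7 as well, but prx-5 has the nearer start. The pooled list held 4 more summits in the window, with signals from 16.9 to 45.6, one of them at -38 bp from the neighbour cup-16.

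At prx-13 (WBGene00004198, II:7250151-7252015, minus strand) the summits were at -190 and -389 bp in nearly the same interval (II:7252013-7252462 and II:7252013-7252497), 199 bp apart, the smallest distance in any list. The nearer one had signals of 243 pooled (rank 2623), 124 in replicate 1 (rank 2850) and 119 in replicate 2 (rank 2471). The farther one, in the 5' UTR of ada-2, had signals of 111 pooled (rank 6154), 59.3 in replicate 1 (rank 6403) and 42.1 in replicate 2 (rank 7435). The nearer summit was at -54 bp from ada-2, which is transcribed away from prx-13, and the farther one was at 145 bp from it. Both summits were therefore nearest to ada-2, and the lists do not tell the genes apart. The next gene upstream of prx-13, lsm-4, was 216 bp away on the same strand. In replicate 1 the farther summit was at -407 bp from the prx-13 start, in a coding exon of lsm-4. Whether a separation of 199 bp marks separate sites or 1 wide site was not tested. Lower pooled summits at -1287 and -1489 bp lay in the promoter window of lsm-4.

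The genes for membrane protein insertion stood on either side of the threshold. In yeast and mammals Pex19 binds newly made peroxisomal membrane proteins in the cytosol and Pex3 is its anchor on the membrane.

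At prx-19 (WBGene00004201, III:8807482-8809295, minus strand) the thresholded summit was at -193 bp (peak III:8809248-8809727), with signals of 100.5 pooled (rank 6654), 53.2 in replicate 1 (rank 6988) and 49.3 in replicate 2 (rank 6550). This is the lowest of the 10 thresholded peroxin summits. A pooled summit at -399 bp had a signal of 84.9 with rank 7505, just below the limit. The nearest gene upstream, pat-2, was 9603 bp away.

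At prx-3 (WBGene00004193, X:6110741-6112917, minus strand) the pooled list had a promoter summit at -152 bp with a signal of 91.7 and rank 7136, against a limit of 93.0. In replicate 1 it was at -144 bp (signal 45.6, rank 7858), and in replicate 2 at -163 bp (signal 44.5, rank 7121). The signals of prx-19 and prx-3 thus lay close to the limit, on opposite sides of it.

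PRX-11 belongs to the Pex11 family, which shapes and divides peroxisomes in yeast and mammals. Its gene prx-11 (WBGene00004196, I:12971615-12972259, plus strand) lies within gale-1, a gene for a UDP-galactose epimerase. The thresholded summit was at -1251 bp (peak I:12970124-12970603), in an intron of gale-1 and 125 bp past the gale-1 start, with signals of 121 pooled (rank 5697), 72.4 in replicate 1 (rank 5364) and 50.1 in replicate 2 (rank 6461). It is thus in the promoter window of gale-1 and not of prx-11. A pooled summit past the 3' end, at 1584 bp, had a signal of 92.996 and rank 7043, against the lowest thresholded signal of 93.0415.

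**Figure D2:**
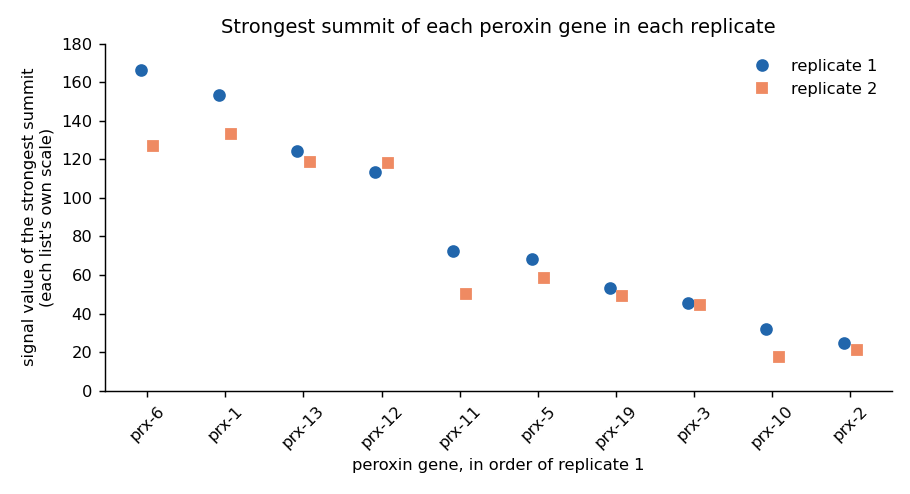
Signal value of the strongest summit in the wide window of each peroxin gene in replicate 1 (circles) and replicate 2 (squares), on each list's own scale, with genes on the x axis in the order of replicate 1. The first 4 genes are prx-6, prx-1, prx-13 and prx-12, and prx-2 and prx-10 have the lowest values in both replicates.

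The order of the genes was nearly the same in both replicates. By strongest summit it ran prx-6, prx-1, prx-13, prx-12, prx-11, prx-5, prx-19, prx-3, prx-10 and prx-2 in replicate 1. In replicate 2 the neighbours prx-6 and prx-1, prx-11 and prx-5, and prx-10 and prx-2 changed places, so the order within these pairs is not resolved by 2 replicates. All 10 thresholded peroxin summits overlapped, by at least 1 bp, one of the 7038 strongest peaks of each replicate. For the farther prx-13 summit, whose own peak in replicate 2 ranked 7435, the overlap there was with the peak of the nearer summit. The thresholded list was made from the same replicates, so this overlap is not independent of it. The replicate summits lay a median of 20.5 bp apart at the 10 peroxin summits and 20 bp apart over all thresholded summits.

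**Figure D3:**
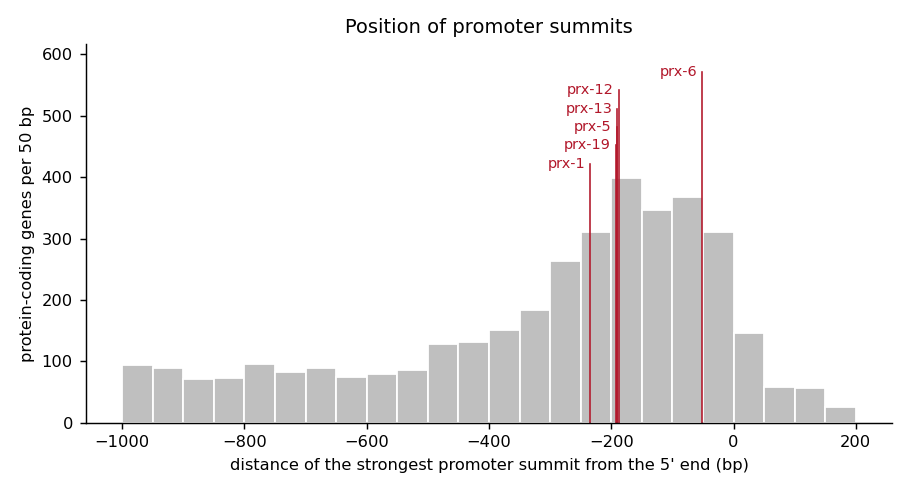
Distance of the strongest promoter summit from the 5' end in bp (x axis) for the 3712 protein-coding genes with a thresholded promoter summit, as genes per 50 bp (grey bars), with the 6 peroxin genes as red lines whose heights only separate the labels. Of the peroxins, prx-19, prx-5, prx-13 and prx-12 lie between -193 and -188 bp.

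In 4 of the 6 peroxin genes with a promoter summit, the strongest one lay between -193 and -188 bp. The strongest one was at -193 bp in prx-19, -191 bp in prx-5, -190 bp in prx-13 and -188 bp in prx-12, with prx-1 at -234 bp and prx-6 at -51 bp, and the second promoter summit of prx-13 was at -389 bp. The median was -190.5 bp over these 6 genes, with quartiles of -192.5 and -188.5 bp. Over the 3712 genes with a promoter summit the median was -223 bp, with quartiles of -463 and -97 bp, and the stretch from -200 to -150 bp, where the 4 peroxin summits fall, held more genes than any other 50 bp (398, or 10.7%). The positions of replicate summits differed by 16 to 38 bp at prx-12, prx-13 and prx-19 and by 69 bp at prx-5, so the spread of a few bp among the 4 genes is finer than the replicates resolve.

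The strongest signal at the peroxins was near that of all genes with a summit in the wide window and lower in the promoter window. In the wide window, the strongest thresholded signal of the 7 peroxin genes with a summit ran from 100.5 to 296, with a median of 231. The median was 337 over 19 other peroxisome genes and 222 over the 6443 protein-coding genes with a summit. The strongest promoter summit had a median signal of 151 over 6 peroxin genes, 297 over 14 other peroxisome genes and 202 over 3712 protein-coding genes. With only thresholded summits above the median signal of the list, 4 of the 10 peroxin genes kept one (40%), namely prx-1, prx-6, prx-12 and prx-13, against 18.8% of all protein-coding genes. In the promoter window 2 of the 10 had such a summit (20%), prx-12 and prx-13, against 9.77%. When each summit was counted only for the nearest start, prx-11 and prx-13 dropped out and 5 of 10 remained (50%), against 21.2%. In the pooled list without a threshold, 9 of 10 had a summit (90%), against 54.0%.

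**Figure D4:**
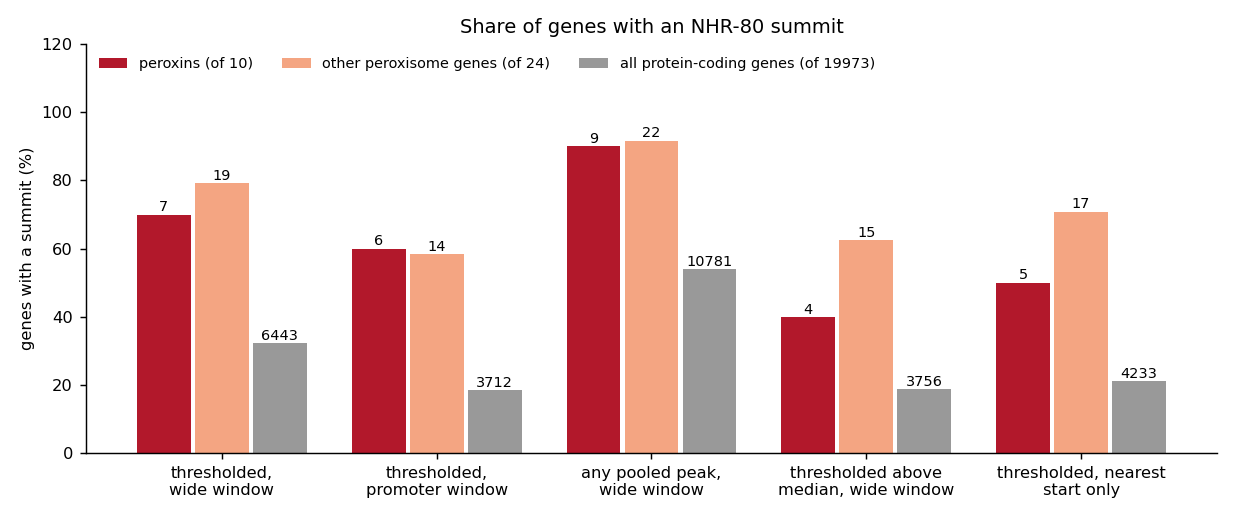
Share of genes with an NHR-80 summit in percent (y axis) under 5 rules for calling one (x axis), for the 10 peroxins, 24 other peroxisome genes and 19973 protein-coding genes, with the number of genes above each bar. Peroxins lie above all protein-coding genes under each rule, from 40% against 18.8% for strong summits to 90% against 54.0% for any pooled peak.

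The other 24 peroxisome genes of the list differed by role. A thresholded summit was found in the wide window of 19 of them (79.2%) and in the promoter window of 14 (58.3%), against 32.3% and 18.6% of all protein-coding genes. The wide windows of the 24 genes were longer, with a median of 6155.5 bp against 5027 bp, and the wide-window shares were not adjusted for length. The lowest of the strongest signals of the 19 genes was 93.6, close to the limit. All 10 genes of matrix beta-oxidation, the pathway that shortens fatty acids inside the organelle, had a thresholded summit in the wide window. The strongest were in the windows of acox-1.4 (566), acox-1.3 (462) and acox-1.1 (395), which encode acyl-CoA oxidases. The genes acox-1.1, acox-1.2, acox-1.3 and acox-1.4 lie in a row with overlapping windows, so that a summit can count for more than 1 of them. The only thresholded summit of acox-1.2, at 432 bp, also lies in the window of acox-1.1. Its signal was 97.2 (rank 6819), close to the limit of 93.0. The summit of acox-1.4 was nearest to the start of F08A8.8, and that of acox-1.3 to the start of acox-1.4.

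All 5 genes of the ABC transporters that carry fatty acyl groups across the peroxisomal membrane had a summit, led by pmp-5 (369 at -121 bp) and pmp-1 (337 at -159 bp). The value of pmp-2 was from the same summit as that of pmp-1. All 3 genes of ether lipid synthesis had one, with fard-1, a fatty acyl reductase gene, at 447 (-1296 bp), acl-7 at 321 (-363 bp) and ads-1 at 257 (-891 bp). Outside these groups, fis-2 was the single gene with a thresholded summit (337 at -1706 bp, nearest to sec-16A.2). The division genes drp-1 and fis-1, the docking gene prx-14, the catalase gene ctl-2 and the Lon protease gene lonp-2 had none.

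**Figure D5:**
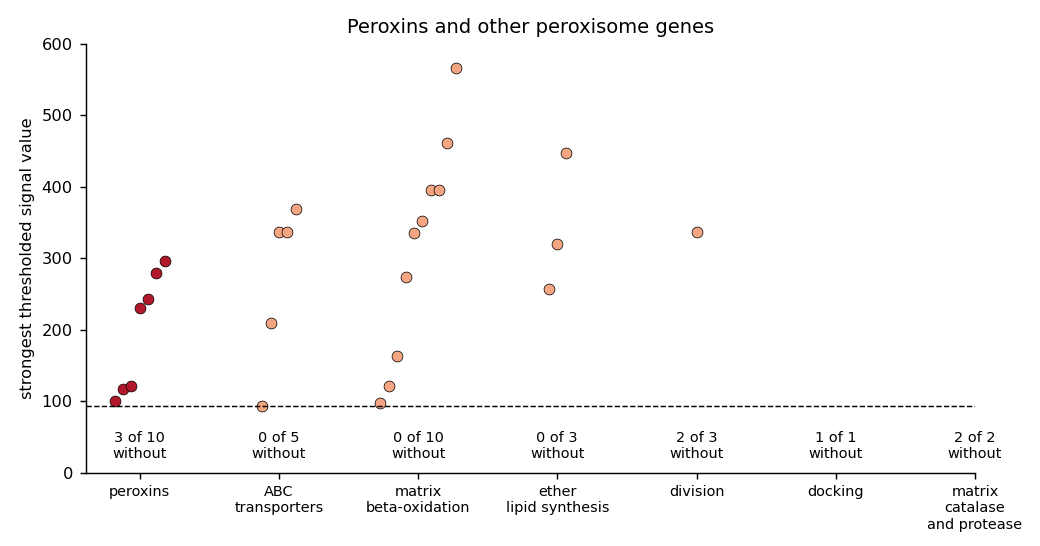
Strongest thresholded signal value in the wide window (y axis) for the peroxins (red) and for other peroxisome genes by role (orange), 1 point per gene, with the number of genes without a thresholded summit under each column and the lowest thresholded signal of 93.0 as a dashed line. The peroxin points reach 296, while matrix beta-oxidation reaches 566.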

How the data were processed

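Peak lists for 2 biological replicates of 1 group, numbered as in the labels, were analysed with no test, because the study has no second group. The signal value of each peak was deposited by the authors on the peak caller's own scale, against a control per the notes deposited with the samples. The pooled and replicate lists were input to IDR and the thresholded list its output, per the file headers and notes. Not given in the sources used here are the aligner, the caller, their versions and the threshold of IDR. Lists on ce10 were not used, apart from the length of the thresholded one (9962 peaks).

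Summits, written 1-based, were joined to WBcel235 genes of Ensembl release 115 (19973 nuclear protein-coding genes), and summit sequences were read from the RefSeq genome of that assembly. Window counts were checked against bedtools 2.31.1, and both gave 6443 genes. Python 3.11.15, numpy 2.4.6, pandas 2.3.3 and matplotlib 3.10.9 were used. Overlap required 1 bp. The 10 genes, the lists, motifs and windows were chosen with earlier results of these data known. All 10 peroxins were named, with genes sharing a summit or nearest to it, and up to 3 other peroxisome genes per role by strongest summit. Alternatives changed the threshold, window, replicate, gene assignment, overlap and motif distance.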

Additional observations from a re-analysis of the deposited data

How the results depend on the processing

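The count of 7 peroxin genes with a thresholded summit ranged from 5 to 9 over most alternatives and was 4 with only peaks above the median signal. The 10 summits became 4 above the median signal, 33 in the whole pooled list and 6 when counted for the nearest start only. The 6 genes with a promoter summit became 2 above the median signal (9.77% of all protein-coding genes). With at least 50% of both intervals required to overlap, 6 of the 10 summits were found among the strongest peaks of both replicates. TGATAA was within 100 bp of 8 of the 10 summits, against 51.7% of all thresholded summits. The rank of the strongest summit in a single replicate was 2041 to 2046 for prx-1 (2091 pooled), 1785 to 2214 for prx-6 (1909), 5643 to 5647 for prx-5 (5901) and 6550 to 6988 for prx-19 (6654). From 1 replicate alone 7 genes had a summit, with 9 to 10 summits, and the missing one was that of prx-13 at -389 bp in replicate 2. With as many pooled peaks as the ce10 list holds, chosen after seeing the data, prx-3 passed and the count was 8. These settings differ by construction in which peaks, overlaps or distances count. Depth is unknown, and 2 replicates of 1 tagged strain give no interval for any value.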

Other observations

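The sequences under the thresholded peroxin summits shared words beyond the motifs searched. These words were read off the same windows in which they were then counted, so the values are descriptions. All words of at least 10 bp shared by 2 peroxin genes, or of at least 7 bp shared by 3 or more, were listed over both strands of the 50 bp on each side of a summit, which gave 13. Some differed little between all thresholded summits and the pooled peaks outside them, or were commoner outside. TAAAAAA was at 6.95% and 12.9%, CTACGAC at 0.413% and 0.466%, AAAAAGAT at 1.89% and 1.61%, and ATCTTTTTTA at 0.128% and 0.111%. The longest of the 13 was ACTACGTCGTAG, at prx-1 and prx-12 (both on X). It was at 2 of the 7020 thresholded summits and at 0 of the 19750 pooled peaks outside them, so the 2 peroxins were the only thresholded summits with it. In promoter windows it was found in 2 of 19973 protein-coding genes, these 2 genes, and in 0 of the 24 other peroxisome genes. Both source summits lie in the promoter windows, so the presence of these 2 genes was fixed by how the word was chosen. Its first 8 letters, ACTACGTC, were also at the prx-5 summit, and they were at 12 of all thresholded summits, these 3 included.

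In the same 3 genes TGATAA was followed by GACA on the strand of the gene. The joined word TGATAAGACA was at 3 of the 10 peroxin summits, against 43 of the 7020 thresholded summits (0.613%) and 19 of the 19750 other pooled peaks (0.0962%). It was in the promoter windows of 3 of the 10 peroxin genes, 0 of the 24 other peroxisome genes and 104 of the 19973 protein-coding genes (0.521%). The 3 peroxin genes are those the word was read from, with summits in their promoter windows, so their count was fixed in advance. The distance between the words was not constant. At prx-1 ACTACGTC began 23 bp before the summit and TGATAAGACA 2 bp after it, at prx-12 they began 31 and 14 bp after it, and at prx-5 they began 5 and 31 bp before it. What binds these words was not tested.

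A further word was at a summit of each of the ATPase genes. GACGCAG lies within AGACGCAGACA, which is among the 13 listed words because a summit window of each of these genes holds it. The presence of GACGCAG at these genes was therefore fixed by how the word was chosen, and its shares are descriptions. GACGCAG was within 50 bp of the prx-1 summit at -1329 bp and of the prx-6 summit at -51 bp. That makes 2 of the 10 peroxin summits (20%), against 6.40% of all thresholded summits and 1.80% of the other pooled peaks. These were the 2 peroxin summits with no TGATAA within 100 bp. Both stretches are shown on the strand of the gene, with GACGCAG in capitals and the summit at base 51.
prx-1, chrX:14312548-14312648, plus strand: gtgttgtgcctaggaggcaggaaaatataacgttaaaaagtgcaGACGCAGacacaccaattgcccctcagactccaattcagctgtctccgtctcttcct
prx-6, chrV:4720094-4720194, minus strand: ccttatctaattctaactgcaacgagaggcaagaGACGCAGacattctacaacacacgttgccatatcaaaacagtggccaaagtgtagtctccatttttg
The pooled prx-3 summit at -152 bp, under the threshold, also held GACGCAG, on the other strand.

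Of the 10 thresholded peroxin summits, 8 had another pooled summit less than 220 bp away, against 58.3% of all nuclear thresholded summits. The 2 summits of prx-13 are each other's neighbour, at 199 bp, so this pair makes 2 of the 8. The smaller neighbours at prx-1, prx-5, prx-6, prx-11, prx-12 and prx-19 were at most 206 bp from the thresholded summit.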
